A study of Mus musculus with 2 samples.

Results

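The genes described here control entry into and exit from the cell cycle. They are the cyclins, the cyclin-dependent kinases (CDKs), the CDK inhibitors, the E2F transcription factors, the RB family and the phosphatases, kinases and ubiquitin ligase subunit that act on them. They were chosen by name, as 40 listed genes, and all 40 had a row among the 17024 genes of the deposited table. RNA was sequenced from Th17 cells, which are helper T cells that make interleukin 17, and from group 3 innate lymphoid cells (ILC3s), which make similar cytokines without an antigen receptor. The Th17 library came from GFP+ T cells of IL17A_IRES_GFP Knockin mice and the ILC3 library from GFP+ ILC3 cells of IL23R_GFP Knockin mice. Mice of both lines were C57BL/6, were 6 to 8 weeks old and gave cells of the small intestine. GFP thus reported Il17a transcription in Th17 cells and Il23r transcription in ILC3s, and line, reporter and cell type differed together. Each group held 1 library, so no difference has a replicate check. The sources used here do not give the number of mice pooled.

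In a dividing lymphocyte, growth signals raise the D-type cyclins, which bind CDK4 and CDK6 and begin to phosphorylate RB and its relatives. That releases E2F factors, which switch on cyclin E, cyclin A and the genes of DNA replication, and CDK1 with the A and B cyclins then drives mitosis. INK4 proteins block CDK4 and CDK6, CIP/KIP proteins block CDK2 and other CDKs, and in resting cells E2F4 with p130 (Rbl2) keeps cell cycle genes silent. The cyclins and kinases of the later phases are known to be scarce in resting lymphocytes.

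The libraries held 17555055 reads (Th17) and 22509405 reads (ILC3) over the listed genes. Levels are the authors' normalized counts, that is, reads divided by a size factor for each library. Intervals in brackets are exact 95% intervals of the ratio. They allow for counting error alone, so they speak of this pair of libraries and not of Th17 cells or ILC3s as such. The 8 T cell markers summed to 86989 normalized counts in Th17, against 4138 in ILC3, and all 8 were higher in Th17. Of 9 ILC3 markers, 8 were higher in ILC3, with sums of 32345 in Th17, against 87132 in ILC3. Markers of other cells were mostly higher in ILC3, with sums given here over every listed gene that had a row. This held for 12 of 12 stroma and endothelium genes (2413 in Th17, against 12735 in ILC3, with Cdh5, Kdr and Tek at 0 in Th17), for 7 of 7 measured B and plasma cell genes (3259.6 in Th17, against 13779 in ILC3) and for 11 of 11 measured epithelium and crypt genes (281 in Th17, against 2490.0 in ILC3). Macrophage and dendritic cell genes, 6 of 11 of them higher in ILC3, summed to 1368 in Th17, against 2096 in ILC3. Of 10 mast cell and granulocyte genes 5 had a row and 2 were measured, and the 5 summed to 12.9 in Th17, against 76.5 in ILC3. The highest of each list were Cd4, Kit, Pecam1, Igj, Lyz1, Xcr1 and Cpa3. The part of these cells in the results below was not tested.

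Low values were less finely resolved in ILC3. In the Th17 library 1177 genes had 1 read, 438 had 3 and 129 had 12, whereas in the ILC3 library 174 genes had 1 read, 65 had 3 and 117 had 12. From 4 reads up, 12 was the most frequent read number in ILC3. In Th17 it was 4, the lowest number searched, because gene numbers there fell from 1 read up. The 4 is thus no sign of grouped reads in Th17. A second interval, which counts ILC3 reads in groups of 12 and Th17 reads in groups of 4, is also given, whole or by its lower end, for every member with 74 or fewer ILC3 reads and for some above that.

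Taken as 40 genes, the cell cycle regulators leaned to the Th17 library, and the lean was uneven. The A, B and F cyclins, Cdk1, Ccne1, Cdk6, E2f2, E2f8 and Cdc25b were more than 10-fold higher in Th17 by their ratio or, at 0 in ILC3, by a floor of 3 reads. With grouped reads, however, intervals started below 10-fold for Cdk1 (9.28), E2f8 (8.29), Cdk6 (7.63), Ccne1 (7.24), Ccnb2 (5.84) and Cdc25b (5.64). Cdkn2a and Cdc25c passed 10-fold by that floor too, but with grouped reads their intervals started at 3.77-fold and 1.84-fold. The D cyclins, Cdk4, the CIP/KIP inhibitors and the RB family differed by under 2-fold. Cyclin G2 (Ccng2) was the 1 member far higher in ILC3. A difference was called large at an at least 4-fold ratio of normalized counts plus 1, where the higher value also reached 100 normalized counts. By that rule 14 of 40 members were higher in Th17, against 4.87% of the 13719 genes with a mean of at least 10 normalized counts. In ILC3, 1 of 40 was higher, against 6.38% of those genes. The remaining 25 members had no large difference. Counting differences of any size, 33 members were higher in Th17, against 50.7% of measured genes, and 7 were lower. When the libraries were instead centred on constitutively expressed genes (mitochondrial ribosome, proteasome and complex I), 6 of those 33 turned to lower in Th17, as named below, and the median of all measured genes moved to -0.46. In ILC3 4 of the 37 members with at least 50 normalized counts in Th17 were listed at 0, against 1.3% of such genes. The median log2(Th17/ILC3), computed with 1 count added to both values, was 1.27 over the members and 0.02 over all measured genes. The interval lay above equal values for 31 members and below for 4, against 41.7% and 39.8% of measured genes. The members together held 0.283% of the Th17 reads and 0.256% of the ILC3 reads. In bulk RNA, fewer dividing cells and less RNA per dividing cell cannot be told apart.

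**Figure D1:**
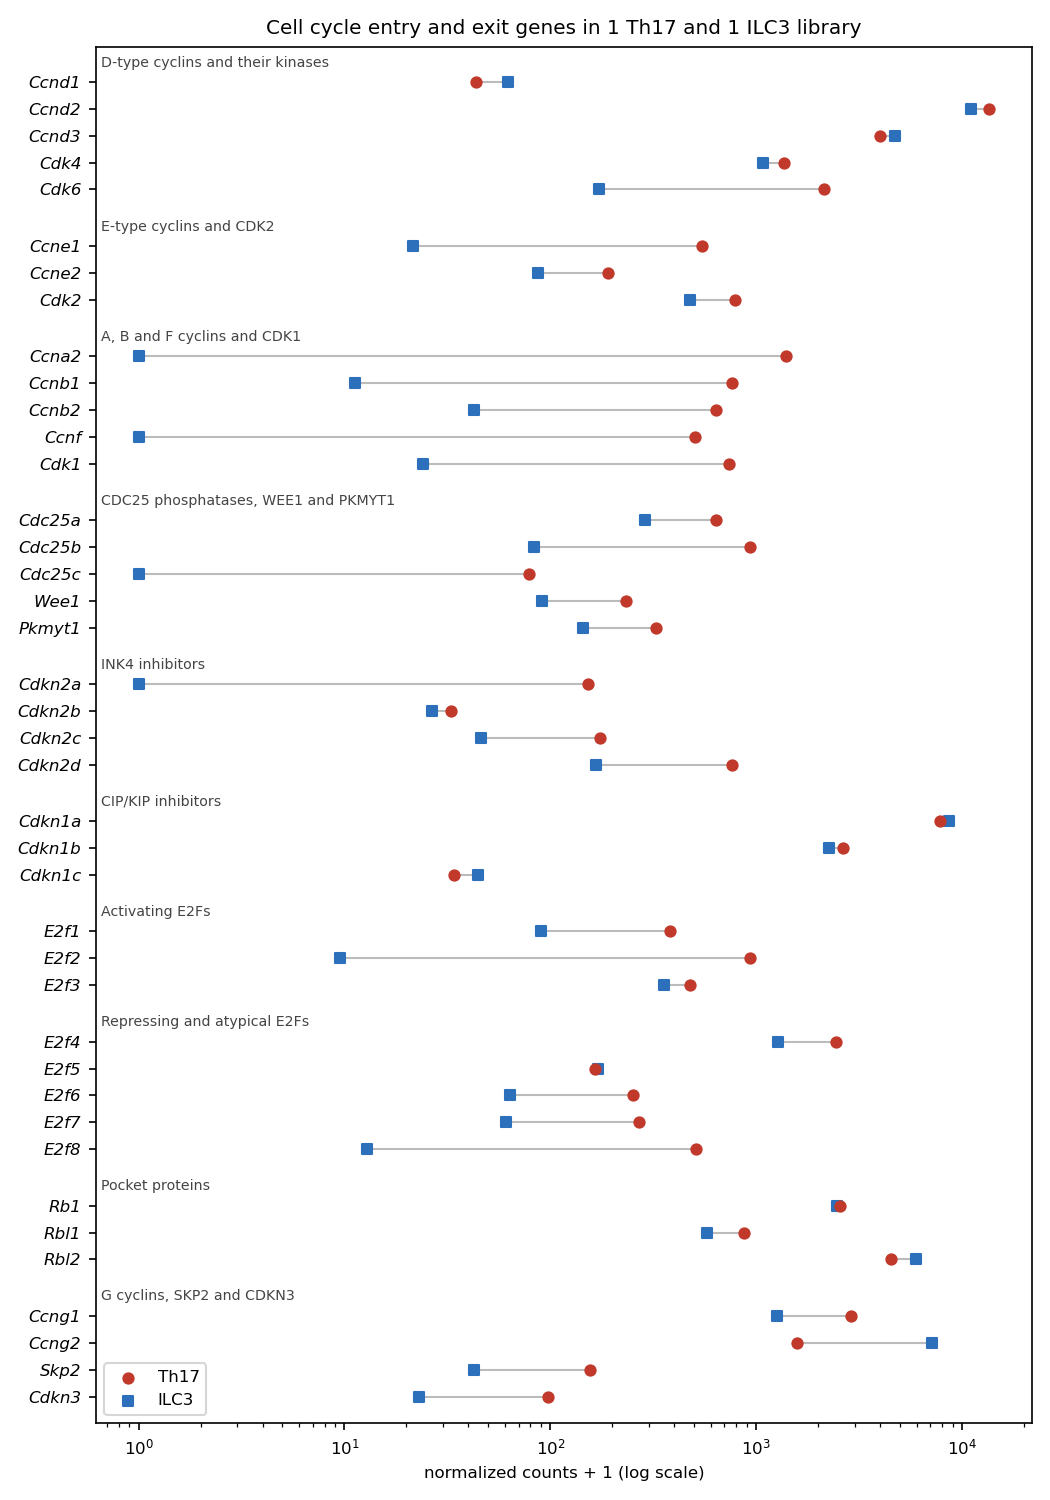
Normalized counts plus 1 (log axis) of the 40 genes in the Th17 library (circles) and the ILC3 library (squares), 1 library each, grouped by role. Squares at 1 are genes listed at 0 in ILC3 (Ccna2, Ccnf, Cdc25c and Cdkn2a), and the pairs of points nearly coincide for the D cyclins, Cdkn1a, Cdkn1b and Rb1.

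**Figure D2:**
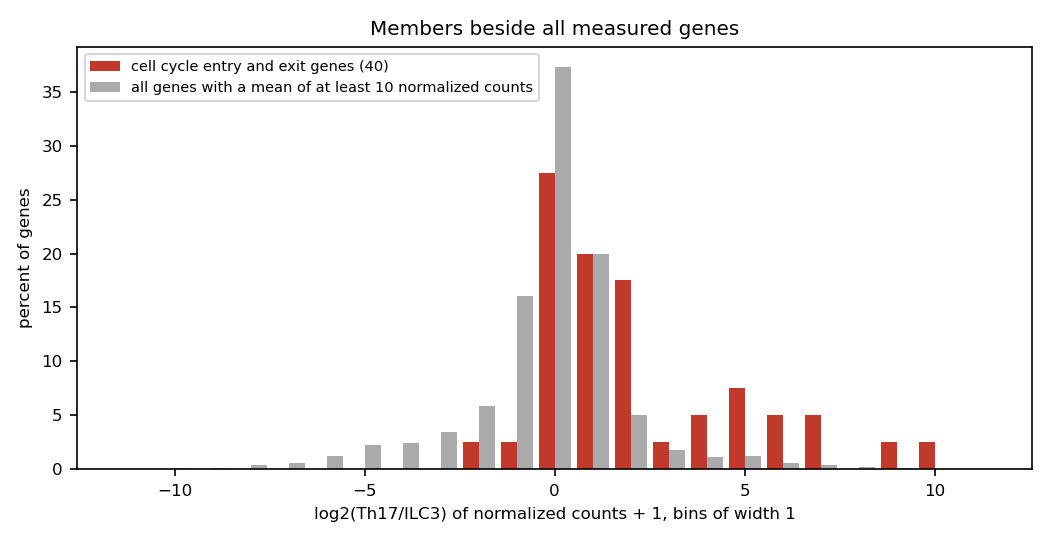
Percent of the 40 genes and of the 13719 measured genes in each bin of log2(Th17/ILC3), computed on normalized counts plus 1. Of the 40 genes 11 fall between -0.5 and 0.5, and the far right holds Ccna2, Ccnf, Cdkn2a, E2f2, Cdc25c and Ccnb1.

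The D-type cyclins and their kinases start the cycle. Ccnd2 had 13537 normalized counts in Th17, against 11055 in ILC3, and was the most highly counted member in both libraries. Ccnd3 had 3969.8 in Th17, against 4696 in ILC3. The ratios were small and of unlike sign, with Ccnd2 1.22-fold higher (1.19 to 1.26) and Ccnd3 1.18-fold lower in Th17 (1.13 to 1.24), though with centring Ccnd2 too was lower in Th17. Ccnd1, the D cyclin that many non-lymphoid cells use, had 42.3 in Th17, against 61.2 in ILC3, with an interval that held equal values (1.45-fold lower in Th17, 0.957 to 2.22). With grouped reads its Th17/ILC3 interval was 0.2198 to 2.36. The stroma and epithelium markers given above were also higher in ILC3, and their part in the Ccnd1 reads was not tested. Cdk4 had 1365 in Th17, against 1077 in ILC3 (ratio 1.27, 1.17 to 1.37), and it too turned to lower in Th17 with centring. Cdk6, whose product is the other partner of the D cyclins, had 2120.1 in Th17, against 171 in ILC3, a 12.4-fold difference (10.7 to 14.4, or 7.63 to 21.6 with grouped reads). The kinases of the same step thus differed by unlike amounts. Within each library, Cdk6 made up 60.8% of the Cdk4 and Cdk6 reads in Th17 (59.05 to 62.6, Clopper-Pearson) and 13.7% in ILC3 (11.97 to 15.6). Such shares do not depend on how the libraries are scaled, and for all 12 shares shown here and in the plot of shares the intervals of both libraries stayed apart with grouped reads, a setting added after seeing the data. Per kilobase of exon, Cdk6 stood below Cdk4 in both libraries, at 184 and 665 normalized counts per kilobase in Th17 and at 14.8 and 525 in ILC3.

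Cyclin E and CDK2 carry cells from G1 into S phase. Ccne1 had 546 normalized counts in Th17, against 20.4 in ILC3, which is 26.7-fold (17.7 to 42.2, or 7.24 to 223 with grouped reads). Ccne2, its paralog, had 189 in Th17, against 85.9 in ILC3 (ratio 2.204, 1.71 to 2.86). Cdk2, their kinase, had 782 in Th17, against 475 in ILC3 (ratio 1.65, 1.47 to 1.85). The share of the paralogs therefore differed: Ccne1 held 74.2% of the cyclin E reads in Th17 (70.6 to 77.6) and 19.2% in ILC3 (12.7 to 27.2). With grouped reads the ILC3 interval was 2.52 to 55.6, so which paralog led in ILC3 was not resolved. Both cyclin E genes together were 4.02% of the cyclin D and E reads in Th17 (3.72 to 4.34) and 0.668% in ILC3 (0.556 to 0.795).

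The cyclins of S phase and mitosis, cyclin F and CDK1 showed the widest separation. A large difference was found for all 5, with sums of 4019 normalized counts in Th17, against 74.8 in ILC3. Ccna2, encoding cyclin A2 of S and G2 phase, had 1389.9 in Th17 and had no read in ILC3. Ccnf, encoding cyclin F, the substrate receptor of a ubiquitin ligase, had 499.8 in Th17 and likewise had no ILC3 read. Against a floor of 3 reads in the ILC3 library, Ccna2 was 545-fold and Ccnf 196-fold higher in Th17. The exact interval started at 442-fold for Ccna2 and 159-fold for Ccnf, and the grouped interval at 36.7-fold and 13.05-fold. The mitotic cyclins Ccnb1 and Ccnb2 were low but present in ILC3. Ccnb1 had 763 in Th17, against 10.2 in ILC3 (ratio 74.8, 42.5 to 145), and Ccnb2 had 633 in Th17, against 41.7 in ILC3 (ratio 15.2, 11.3 to 20.8). Cdk1, the mitotic kinase, had 734 in Th17, against 22.96 in ILC3 (ratio 31.96, 21.8 to 48.9). With grouped reads the lower bounds were 13.2 for Ccnb1, 5.84 for Ccnb2 and 9.28 for Cdk1. Of the A, B, F and D cyclin reads, the A, B and F cyclins were 15.8% in Th17 (15.2 to 16.3) and 0.327% in ILC3 (0.2502 to 0.4199). Reads of Ccnb1, Ccnb2 and Ccnd3 may be shared with the annotated copies Ccnb1-ps, Ccnb2-ps and Ccnd3-ps, so their single values are less certain. The authors' deposited table lists adjusted p-values of 3.01e-06 for Ccna2, 0.00331 for Ccnf, 0.0156 for Ccnb1, 0.0768 for Cdk1 and 0.346 for Ccnb2. Behind them stands 1 library per group. They were under 0.05 for 4 of 40 members, the fourth being E2f2, all higher in Th17, against 0.587% of all genes. Of the 40 members, 0 were under 0.05 there and higher in ILC3, against 1.21% of all genes.

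Genes of this group are known to share promoter elements. The CHR element (searched as TTTGAA and TTCGAA) is bound by the DREAM complex in resting cells, CCAAT boxes by NF-Y, and E2F sites (searched as TTTCCCGC, TTTCGCGC, TTTGCCGC and TTTGGCGC) by E2F factors. The promoters of Cdk1, Ccnb2 and Ccnf are shown because these 3 genes were all far higher in Th17 and each holds 2 CHR matches. Ccnb1 of the same group had no CHR or E2F match, and Skp2, without a large difference, had 2 CHR matches in 1 of its promoters. Sequences are from RefSeq, build GRCm38.p6, 250 bases before to 50 after the start, read 5′ to 3′ along the gene. Capitals mark CHR, CCAAT and E2F matches on either strand, and no match overlapped one of another kind.
Cdk1 (chr10:69352863-69353162, minus strand): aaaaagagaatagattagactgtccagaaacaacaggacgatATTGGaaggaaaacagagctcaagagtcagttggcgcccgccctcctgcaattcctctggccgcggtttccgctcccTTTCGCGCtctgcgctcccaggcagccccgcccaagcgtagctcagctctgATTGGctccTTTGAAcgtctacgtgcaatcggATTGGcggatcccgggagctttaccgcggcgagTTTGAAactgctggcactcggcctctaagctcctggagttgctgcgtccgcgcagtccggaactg
Ccnb2 (chr9:70421505-70421804, minus strand): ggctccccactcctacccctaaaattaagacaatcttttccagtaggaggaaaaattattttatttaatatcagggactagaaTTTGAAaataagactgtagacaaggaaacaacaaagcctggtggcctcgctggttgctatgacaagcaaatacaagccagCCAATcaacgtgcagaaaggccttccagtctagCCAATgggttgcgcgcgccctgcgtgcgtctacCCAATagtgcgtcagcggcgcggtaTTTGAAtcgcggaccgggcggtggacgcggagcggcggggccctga
Ccnf (chr17:24251360-24251659, minus strand): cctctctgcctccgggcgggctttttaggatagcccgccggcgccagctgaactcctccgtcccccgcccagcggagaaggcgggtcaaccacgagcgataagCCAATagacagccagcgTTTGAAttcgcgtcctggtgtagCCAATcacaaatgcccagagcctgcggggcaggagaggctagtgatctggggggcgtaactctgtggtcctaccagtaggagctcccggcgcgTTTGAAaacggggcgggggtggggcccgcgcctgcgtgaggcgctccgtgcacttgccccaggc

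A CHR match lay close to the start in each, first base at position -15 in Cdk1, 5 in Ccnb2 and -14 in Ccnf, counted from the start. Cdk1 also held the E2F match TTTCGCGC at position -131. Promoter sequences were matched for 29 of the 40 members, 7 of which had 2 promoters. Among the 13 matched members with a large difference higher in Th17, 6 had a CHR match, 10 a CCAAT match and 4 an E2F match. Among the 15 with no large difference these numbers were 5, 9 and 4. A CHR and a CCAAT match in 1 promoter were found for 6 of the 13 and 3 of the 15. A gene counted if any of its promoters held the match. E2f2 counted for CHR, and for CHR with CCAAT, only by the promoter further along the gene (chr4:136180532-136180831). The E2f1 sequence matched lay inside the gene, in protein-coding sequence, so the region upstream of E2f1 was not searched. For comparison, 16.5% of the 10126 measured genes with a promoter in the table had a CHR match, 42.6% a CCAAT match, 4.45% an E2F match and 6.82% CHR with CCAAT. Of all 32851 promoters the shares were 19.2%, 37.4%, 2.26% and 7.52%. These are letter matches, not binding sites.

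CDC25 phosphatases activate CDKs by removing phosphates that WEE1 and PKMYT1 add. Each of these 5 genes was higher in Th17, but the difference was large for 1. Cdc25b had 931 normalized counts in Th17, against 82.5 in ILC3 (ratio 11.3, 9.13 to 14.1, or 5.64 to 26.4 with grouped reads). Cdc25a, which acts at the start of S phase, had 633 in Th17, against 286 in ILC3 (ratio 2.21, 1.93 to 2.54). Cdc25c had 77.6 in Th17 and no read in ILC3. That is 30.4-fold by the 3-read floor, with an exact interval starting at 24.1-fold. The grouped interval, however, started at 1.84-fold and the level was under 100 normalized counts. The opposing kinases differed less, Wee1 at 230.5 in Th17, against 90.1 in ILC3 (ratio 2.56, 2.01 to 3.27) and Pkmyt1 at 326 in Th17, against 144 in ILC3 (ratio 2.27, 1.86 to 2.76). Activators and inhibitors of mitotic CDK activity were thus higher in the same library. Cdc25b made up 56.7% of the CDC25 reads in Th17 (54.1 to 59.4) and 22.4% in ILC3 (18.6 to 26.6).

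Among the INK4 and CIP/KIP inhibitors, large differences were found only in the INK4 family, and not for all of its genes. The 4 INK4 genes were all higher in Th17 (3 with centring, where Cdkn2b turned), 2 of them by the large-difference rule. Cdkn2d, encoding p19INK4d, had 758 normalized counts in Th17, against 165 in ILC3 (ratio 4.597, 3.91 to 5.43). Cdkn2a had 151 in Th17 and no read in ILC3. That is 59.00-fold by the floor, with an exact interval starting at 47.3-fold and a grouped interval starting at 3.77-fold. Its row adds up the transcripts for p16INK4a and p19ARF, which share exons. Cdkn2b, the neighbouring gene, had 31.7 in Th17, against 25.5 in ILC3, with an interval that held equal values (ratio 1.24, 0.712 to 2.17, or 0.259 to 9.17 with grouped reads). Cdkn2c, encoding p18INK4c, had 173 in Th17, against 45.1 in ILC3 (ratio 3.84, 2.78 to 5.35, or 1.43 to 13.7 with grouped reads), just under the 4-fold threshold.

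None of the 3 CIP/KIP genes had a large difference. Cdkn1a, encoding p21, had 7779.7 normalized counts in Th17, against 8577 in ILC3 (1.103-fold lower in Th17, 1.07 to 1.14), and Cdkn1b, encoding p27, had 2639 in Th17, against 2242 in ILC3 (1.18-fold higher in Th17, 1.11 to 1.25, but lower with centring). Cdkn1c, encoding p57, was low in both, at 32.9 in Th17, against 43.4 in ILC3 (1.32-fold lower in Th17, 0.815 to 2.17). Its grouped Th17/ILC3 interval was 0.197 to 3.38. Summed, the CIP/KIP genes stood at 10451 in Th17, against 10862 in ILC3. INK4 reads were 9.63% of all reads for these inhibitors in Th17 (9.05 to 10.2) and 2.12% in ILC3 (1.88 to 2.38).

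**Figure D3:**
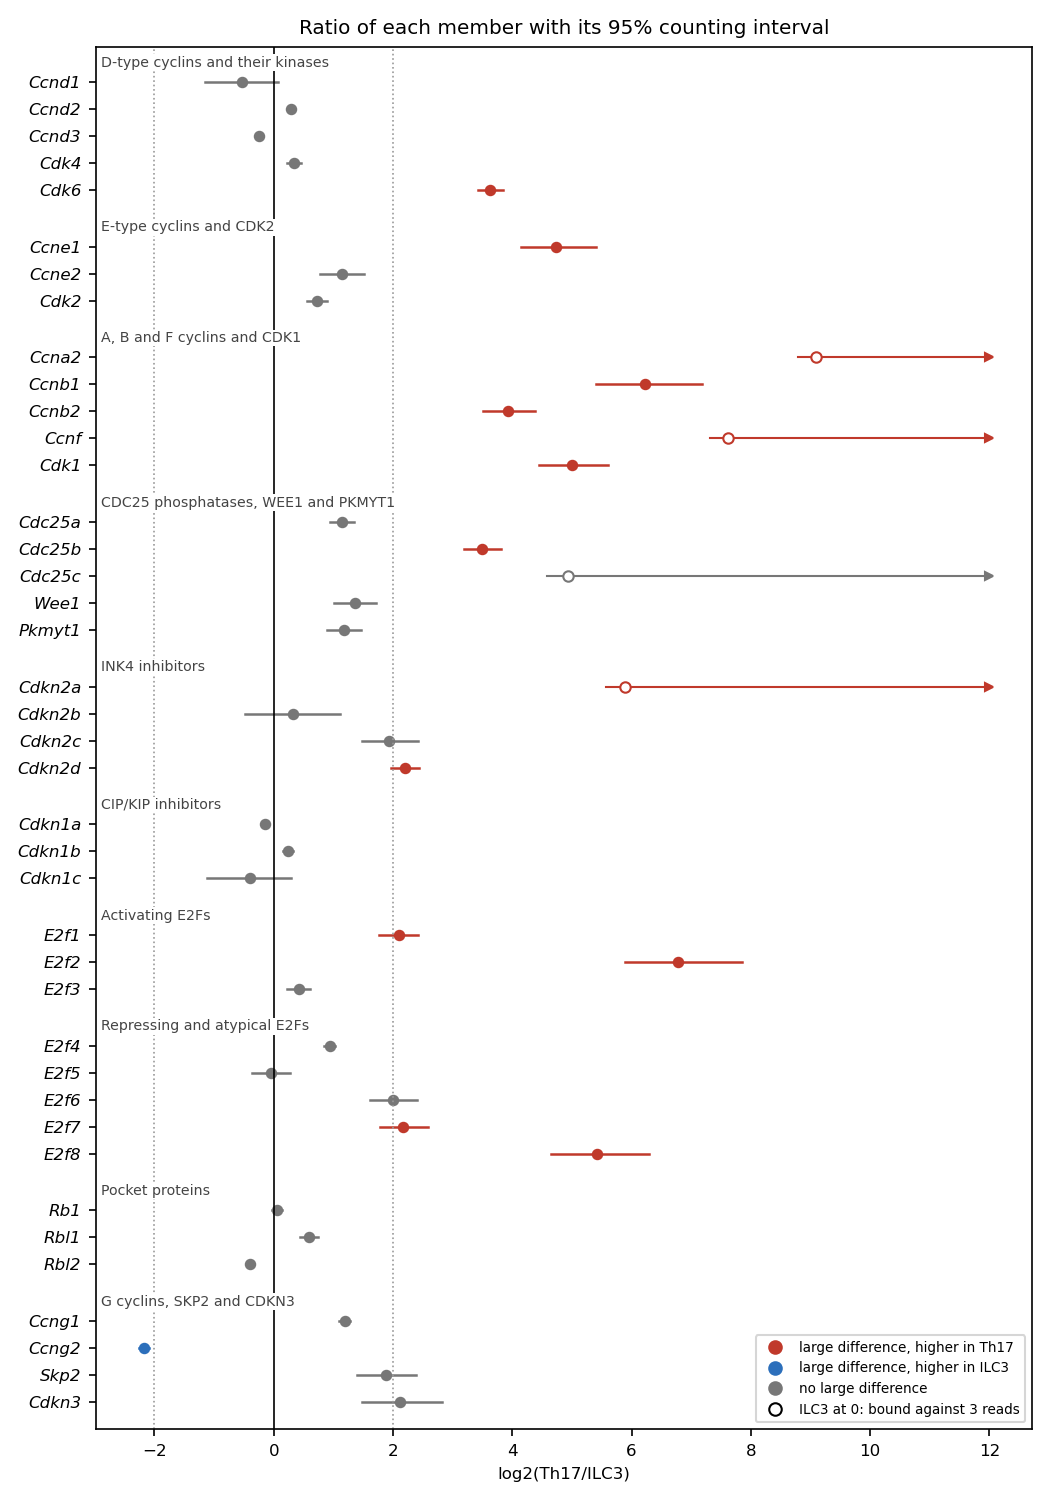
log2(Th17/ILC3) of each gene's normalized counts (points) with exact 95% counting intervals (lines), grouped by role, where dotted lines mark 4-fold. Open circles mark genes at 0 in ILC3, drawn at their ratio against 3 reads, with arrows for intervals that have no upper end. Cdkn3 and Cdc25c are grey because they stayed under 100 normalized counts.

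E2F factors followed the same unevenness. Of the activating factors, E2f2 had 932 normalized counts in Th17, against 8.504 in ILC3 (ratio 109.6, 59.3 to 229.5, grouped interval from 17.1-fold). E2f1 had 381 in Th17, against 89.3 in ILC3 (ratio 4.27, 3.41 to 5.37). E2f3 had 475 in Th17, against 356 in ILC3 (ratio 1.33, 1.16 to 1.53), with a grouped interval that held equal values (0.899 to 2.02) and a ratio below 1 with centring. E2f1 and E2f2 were 73.4% of the activating E2F reads in Th17 (71.1 to 75.6) and 21.5% in ILC3 (18.1 to 25.3). The authors' deposited table lists an adjusted p of 0.00411 for E2f2 and 1 for E2f1 and E2f3.

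The atypical repressors E2f7 and E2f8, which are themselves E2F targets, also had large differences. E2f8 had 507 normalized counts in Th17, against 11.9 in ILC3 (ratio 42.6, 25.1 to 78.5, grouped interval from 8.29-fold), and E2f7 had 268 in Th17, against 59.5 in ILC3 (ratio 4.504, 3.43 to 5.97, or 1.93 to 13.01 with grouped reads). The repressors that pair with pocket proteins differed less. E2f4 had 2427 in Th17, against 1267 in ILC3 (ratio 1.92, 1.79 to 2.05), and E2f5 had 163 in Th17, against 169 in ILC3 with an interval that held equal values (1.04-fold lower in Th17, 0.8295 to 1.295, but higher with upper quartile scaling). E2f6, a repressor that binds no pocket protein, was at 252 in Th17, against 62.9 in ILC3 (ratio 3.999, 3.06 to 5.28, or 1.74 to 11.2 with grouped reads), just short of the threshold. E2f4 was the highest E2F gene per kilobase in both libraries, at 1218 in Th17, against 636 in ILC3.

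The RB family had no large difference. Rb1 had 2550.5 normalized counts in Th17, against 2453 in ILC3, and its interval held equal values (ratio 1.04, 0.983 to 1.1). It turned to lower in Th17 with centring or division by library totals. Rbl1, encoding p107, had 873 in Th17, against 577 in ILC3 (ratio 1.51, 1.36 to 1.68). Rbl2, encoding p130 of resting cells, had 4518 in Th17, against 5973 in ILC3 (1.32-fold lower in Th17, 1.27 to 1.38). Per kilobase, Rbl2 led the family in both libraries, at 917 in Th17, against 1213 in ILC3. Its share of the family's reads was 56.9% in Th17 (55.7 to 58.1) and 66.3% in ILC3 (65.4 to 67.2). The Rbl1 promoter is shown because it holds an E2F match (capitals) 18 bases before the start although Rbl1 had no large difference.
Rbl1 (chr2:157204485-157204784, minus strand): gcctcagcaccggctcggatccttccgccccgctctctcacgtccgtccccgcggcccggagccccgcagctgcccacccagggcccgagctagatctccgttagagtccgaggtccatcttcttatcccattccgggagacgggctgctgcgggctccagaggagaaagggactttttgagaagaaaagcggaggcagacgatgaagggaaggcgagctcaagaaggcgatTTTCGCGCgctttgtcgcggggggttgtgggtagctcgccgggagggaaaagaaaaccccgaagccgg

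Ccng2 was the exception among the 40. It encodes cyclin G2, an atypical cyclin known to be raised in cells that leave the cycle. It had 1576 normalized counts in Th17, against 7159 in ILC3, 4.54-fold lower in Th17 (4.29 to 4.82). With grouped reads the Th17/ILC3 ratio lay between 0.193 and 0.251. The authors' deposited table gives Ccng2 an adjusted p of 0.6295. Ccng1, a p53 target, went the other way, with 2872 in Th17, against 1261 in ILC3 (ratio 2.28, 2.13 to 2.43). Ccng2 thus made up 35.4% of the cyclin G reads in Th17 (33.9 to 36.98) and 85.02% in ILC3 (84.3 to 85.7). Per kilobase it ranked 11 of 40 in Th17, at 505, and 2 of 40 in ILC3, at 2296. Stroma, B cell and epithelium markers were higher in the same library, and their part in the Ccng2 reads was not tested. Its promoter, shown beside those of the mitotic genes, held none of the searched letters. That was not particular to Ccng2, since the promoters of Ccne1 and Cdk6, with large differences toward Th17, held none either. The same was true of Cdk4, E2f6 and Cdkn1a, which had no large difference.
Ccng2 (chr5:93267323-93267622, plus strand): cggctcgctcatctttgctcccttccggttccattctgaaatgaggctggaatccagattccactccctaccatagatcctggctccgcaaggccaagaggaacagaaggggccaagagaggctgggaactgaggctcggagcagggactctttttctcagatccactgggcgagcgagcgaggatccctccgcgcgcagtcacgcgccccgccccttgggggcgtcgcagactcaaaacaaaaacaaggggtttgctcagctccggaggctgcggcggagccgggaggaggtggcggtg

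Skp2, the ubiquitin ligase subunit that targets p27 for destruction, had 154 normalized counts in Th17, against 41.7 in ILC3 (ratio 3.697, 2.64 to 5.24, or 1.32 to 14.1 with grouped reads). Cdkn3, which encodes a phosphatase that acts on CDK2, had 96.4 in Th17, against 22.1 in ILC3 (ratio 4.36, 2.78 to 7.06, or 1.11 to 34.1 with grouped reads) and missed the minimum of 100.

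**Figure D4:**
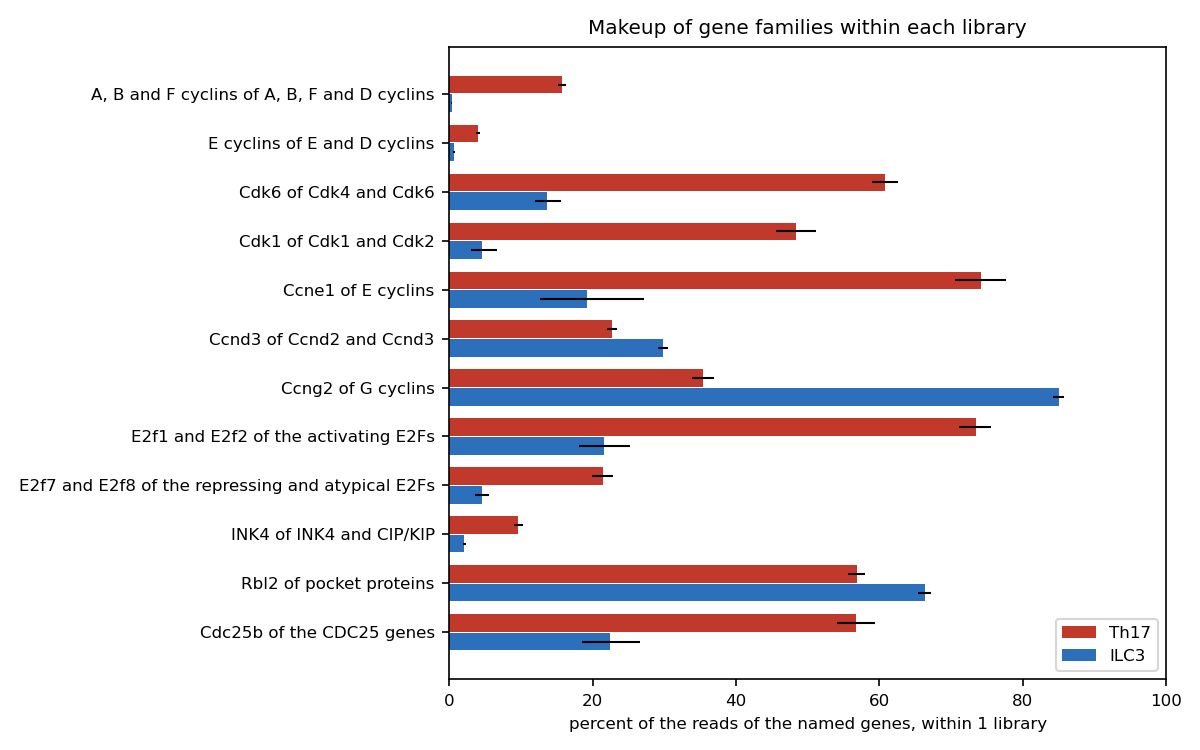
Share of reads within each library, in percent, for 12 pairs of related genes or gene groups, Th17 above ILC3. Error bars are exact 95% binomial intervals for counting error, and Cdk6, Cdk1, Ccne1, E2f1 with E2f2 and Cdc25b take larger shares in Th17, while Ccng2, Ccnd3 and Rbl2 take larger shares in ILC3.

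Per kilobase of exon, the highest members in Th17 were Cdkn1a (2862 normalized counts per kilobase), Ccnd2 (2017), Ccnd3 (1622), E2f4 (1218) and Rbl2 (917). In ILC3 they were Cdkn1a (3156), Ccng2 (2296), Ccnd3 (1919), Ccnd2 (1647) and Rbl2 (1213). Cdkn1a, Ccnd2, Ccnd3 and Rbl2 were thus among the 5 highest in both libraries. The 10 most highly counted members held 75.35% of the members' summed level in Th17, against 93.5% in ILC3. The median member stood at 633 in Th17, against 87.6 in ILC3.

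Other genes of the pathway were read from 9 related lists. Beside their counts, 4.87% of measured genes passed the large-difference rule toward Th17 and 6.38% toward ILC3. Of 22 mitotic genes, 21 passed the large-difference rule toward Th17 (median log2(Th17/ILC3) 3.39), Nuf2 of the kinetochore being the exception at 2.81-fold. Mki67, the proliferation marker, had 8979 normalized counts in Th17, against 551 in ILC3 (ratio 16.3, 15.04 to 17.7), and the mitotic kinase genes Aurkb and Ttk had 603 and 134 in Th17, against 3.402 and 2.55 in ILC3. Of 25 replication genes that E2F factors regulate, 25 were higher in Th17 and 11 had a large difference (median 1.87). Rrm2, a subunit of ribonucleotide reductase, was 25.3-fold higher (21.3 to 30.4) and Gins2, of the replicative helicase, 25.8-fold (13.3 to 57.4). Pcna, the sliding clamp and the highest of them, had 7789 in Th17, against 3405 in ILC3 (ratio 2.29, 2.199 to 2.38).

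The next lists had medians closer to the median of all genes. Among DREAM and MuvB components 3 of 9 still passed the large-difference rule toward Th17, against 4.87% of measured genes, and 0 toward ILC3 (median 0.27). Foxm1, the transcription factor of mitotic genes, was 7.87-fold and Tfdp1, the E2F partner, 5.96-fold higher in Th17, as was the transcription factor Mybl2 (5.98-fold), whereas Rbbp4 differed by 1.15-fold. Of the SCF and APC/C ubiquitin ligase genes 2 of 22 passed the rule toward Th17 and 0 toward ILC3 (median 0.45), the CDK-binding Cks1b (4.71-fold) and the APC/C inhibitor Fbxo5 (38.3-fold), and Ube2s was 1.94-fold higher. Of 25 other cyclins and CDKs, many of which act in transcription, 1 passed it toward Th17, Ccnj (17.5-fold), and 1 toward ILC3, Cdk14 (median 0.14). Cdk14 had 14.1 in Th17, against 609.8 in ILC3, Cdk18 was listed at 0 in Th17 and had 61.2 in ILC3, and Ccnl1, the highest, had 6142 in Th17, against 12207 in ILC3.

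Checkpoint and growth lists went both ways. Of the DNA damage checkpoint genes 3 of 12 passed toward Th17 and 0 toward ILC3 (median 0.47), among them Clspn (8.51-fold) and Brca1 (6.73-fold), and Topbp1 was 1.65-fold higher. In the p53 pathway 3 of 16 passed the rule toward Th17 and 1 toward ILC3 (median 0.23). Pmaip1, Perp and Fas were 14.6-fold, 13.5-fold and 5.06-fold higher in Th17, and Sesn1 was 4.15-fold lower, while the antiproliferative Btg2 had 12381 in Th17, against 35571 in ILC3. Of 13 factors associated with quiescence, 1 passed it toward Th17, Foxo1 (4.21-fold), and 1 toward ILC3, Klf4 (4.37-fold lower in Th17), with Btg1 at 51486 in Th17, against 43738 in ILC3 (median 0.11). In the MYC and MAX network 2 of 11 passed it toward Th17 and 0 toward ILC3 (median -0.08), Mxi1 (8.72-fold) and Mxd3 (182 in Th17, 0 in ILC3), and Mxd1 differed by 1.06-fold.

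**Figure D5:**
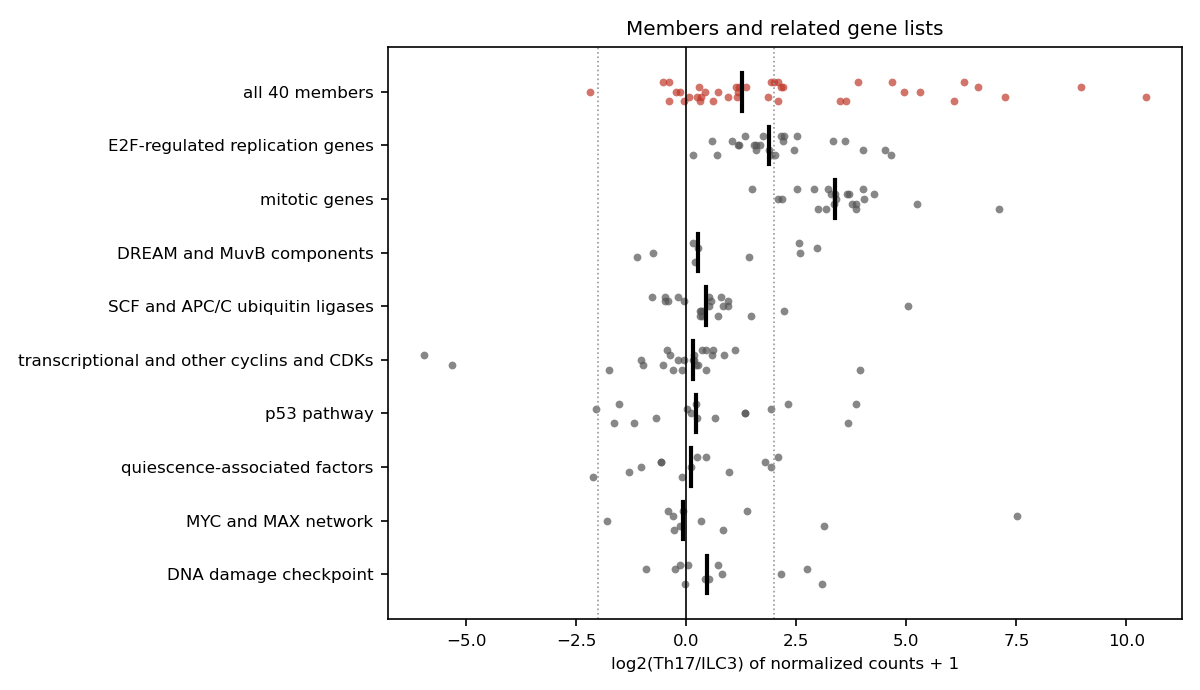
log2(Th17/ILC3) of normalized counts plus 1 for the 40 genes and for the measured genes of 9 related lists, 1 point per gene, with black bars at the medians and dotted lines at 4-fold. The mitotic and replication lists lie to the right of 0 throughout, and the other lists centre within 0.47 of 0.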

How the data were processed

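RNA-seq was deposited as 1 table of 17048 rows, with 1 Th17 and 1 ILC3 library grouped by sample title. Per the submitters' processing notes, TopHat2 2.0.6, HTSeq 0.5.4p3, DESeq 1.12.0 and build mm8 were used. The sources used here do not say whether counting used strand. In GENCODE M21, 10% or more of the exons of Cdk4, Cdkn1c, Ccnd1, E2f8, Pkmyt1, Ccnd3, Ccne2, Ccna2 and Cdkn1a overlap genes on the opposite strand, and Rbl2 overlaps a pair of such genes, by 8.49% and 8.28%, so their values are less certain.

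Per the file headers, the authors' deposited signal is normalized counts, beside which each gene has a fold ratio, a p-value and its adjusted form. The −log10 p-values they deposited were not used. The 24 rows whose names had become dates were left out, which removed 0.251% of Th17 and 0.297% of ILC3 reads. Whole reads were recovered from the value of 1 read (1.18 in Th17, 0.8504 in ILC3), and 100% of values were whole within 0.001 reads.

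Each group being 1 library, neither a count model nor a p-value of its own was computed. Intervals of ratios are exact conditional binomial (Clopper-Pearson) intervals on recovered reads, and PCR copies, which lack molecular identifiers, are counted as reads. Genes at 0 were given a floor of 3 reads in that library (2.55 ILC3 normalized counts). Differences on the log2 scale used a pseudocount of 1, which understates those of low genes, whereas folds in the text do not. Lengths per kilobase are the union of exons in GENCODE M21 (GRCm38), another build than the authors'. Named genes were all members, the 2 largest differences and the highest mean of each related list, and the highest mean of each marker list. Nuf2, Mybl2, Ccnj, Fas and Sesn1 were named after their values were seen, to complete counts. The members and lists were chosen with earlier results of these data known. Of the marker gene names listed, 7 matched no row. Among them was Adgre1, another name of Emr1, which had a row and was analysed. Calculations were tested on simulated libraries and used scipy 1.17.1, pandas 2.3.3 and numpy 2.4.6 under Python 3.11.15, with plots by matplotlib 3.10.9.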

Additional observations from a re-analysis of the deposited data

How the results depend on the processing

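No paired analysis was possible because each group held 1 library. For the same reason no library could be left out. The number of members with a large difference higher in Th17 ranged from 11 to 17 over other scalings, pseudocounts and minimums, and was 22 at 2-fold in place of 4-fold. At 2-fold 12.3% of measured genes were higher in Th17. Ccng2 was the 1 member higher in ILC3 under every setting but 8-fold, where the count was 0. The members' median of 1.27 became 1.16 when libraries were divided by their totals, 1.38 with upper quartile scaling and 0.80 when centred on 144 mitochondrial ribosomal, proteasome and complex I genes. Those genes were 1.38-fold higher in Th17. The median of all measured genes moved alongside, to -0.09, 0.14 and -0.46. Centring changed the split over all genes to 467 higher in Th17 and 1188 in ILC3, against 668 and 875, and among the members to 11 and 1, with E2f1, E2f7 and Cdkn2d no longer called. It also turned Ccnd2, Cdk4, Cdkn1b, Cdkn2b, E2f3 and Rb1 to lower in Th17. Rb1 turned with division by totals as well, and E2f5 turned to higher in Th17 with upper quartile scaling. With grouped reads, the intervals of 30 members lay above and 4 below equal values. The same counts followed when ILC3 reads alone were grouped, a setting added after seeing the data. Of 14 members called higher in Th17, 11 had a lower bound of at least 4-fold, or 10 with grouped reads. In ILC3 13 members had 50 or fewer reads.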

Other observations

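Within each library, mitotic members were also set against Mki67. These pairs were chosen after their values were seen. Of the Ccna2 and Mki67 reads, Ccna2 was 13.4% in Th17 (12.7 to 14.1) and 0% in ILC3, where Mki67 had 648 reads. With grouped reads these intervals were 12.03 to 14.9 in Th17 and up to 6.60 in ILC3, which do not overlap. Ccnb2 was 6.58% in Th17, against 7.03% in ILC3, and Cdk1 was 7.55% in Th17, against 4.0% in ILC3. Ccnb1 was 7.83% in Th17, against 1.82% in ILC3, and Ccnf was 5.27% in Th17, against 0% in ILC3. Counted by single reads, the intervals lay apart for Ccnf, at 4.79 to 5.78 in Th17, against 0 to 0.568 in ILC3. They also lay apart for Ccnb1 (7.26 to 8.43 in Th17, against 0.943 to 3.15 in ILC3) and Cdk1 (6.99 to 8.15 in Th17, against 2.65 to 5.77 in ILC3). For Ccnb2 they overlapped. With grouped reads the intervals of both libraries overlapped for these 4, so no difference in proportion was resolved for them in that setting.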
